A study of Mus musculus with 10 samples.

Results

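The homeostatic microglia marker genes are P2ry12, Tmem119, Sall1, Siglech, Sparc, Gpr34, Olfml3, Fcrls and Slc2a5, 9 genes that were taken by name from the 55487 genes of a bulk RNA-sequencing count table. All 9 were above the limit for testing, counts scaled to library size (CPM) above 1 in at least 3 libraries, together with 13740 genes in all. The libraries were made from cells of the inflamed spinal cord that were sorted by whether they transcribe Arg1, the gene of arginase-1, and the comparison asks how the transcripts of resident microglia divide between the ARG1+ and the ARG1- sort. Every gene of the set had its fitted level lower in the ARG1+ libraries. Without regard to the animal, 0 of 9 passed the limit, where 6.15% of all tested genes were lower. With the animal as a block, 8 of 9 did, where 18.3% of all tested genes were lower, and this count depended on which animals were included.

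Cells came from 5 male mice on a C57BL/6 background with the Arg1tm1Lky allele, a reporter in which cells that transcribe Arg1 also make yellow fluorescent protein (YFP). All 5 had experimental autoimmune encephalomyelitis (EAE), a model of multiple sclerosis driven by immunization against myelin, and were taken at peak disease. Viable CD45+CX3CR1+ cells without CD3 or Ly6G were split into 200000 YFP+ (ARG1+) and 100000 YFP- (ARG1-) cells per mouse for 5 ARG1+ and 5 ARG1- libraries. The mice are named m2, m6, m234, m235 and m236, and each gave 1 library of either sort. No unimmunized animal and no separately sorted microglia are in the comparison, and the gate takes blood-derived macrophages and microglia alike. In such bulk samples, fewer microglia and less of a transcript in each microglial cell cannot be told apart.

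Microglia are the resident macrophages of the brain and spinal cord. They arise before birth, keep themselves by division and in the healthy tissue hold a set of transcripts that most blood-derived macrophages lack. This homeostatic set is built on the myeloid transcription factor PU.1 and needs transforming growth factor (TGF)-beta, whose signal reaches DNA through SMAD proteins. Microglia that respond to damage or inflammation are known to lower it. The 9 genes include surface receptors (P2ry12, Gpr34, Siglech, Fcrls), a membrane protein of unknown biochemical role (Tmem119), secreted proteins (Sparc, Olfml3), a sugar transporter (Slc2a5) and a transcription factor (Sall1).

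Library totals ran from 28212174 to 35455643 counts, apart from the ARG1- library of m234 with 8396863. There 1 CPM stands for 8.496 counts, against 28.0 or more elsewhere. In that library 13484 genes had at least 10 counts, against 15448 to 16174 in the others, while its mitochondrial share of 0.730% lay within the range of all libraries, 0.702% to 0.889%. The sorted gene checked the labels. Arg1 was at 588 to 1049 CPM in ARG1+ and at 14.3 to 27.0 CPM in ARG1- libraries, with 15.9 CPM in the ARG1- library of m234. For the markers of the gate, Cx3cr1 was at 43.9 to 233 CPM in ARG1+ and 102 to 565 CPM in ARG1- libraries. Cd3e and Ly6g reached at most 0.234 and 0.129 CPM. All CPM are scaled to TMM library sizes.

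Promoter sequences of the set are shown because its members moved together from library to library, and 5 of the windows are printed. P2ry12, Sall1, Siglech and Slc2a5 ran closely in parallel, as did Sparc and Olfml3, whose windows are not printed. Fcrls departed from them most. Each window holds 250 bases before and 50 after a RefSeq transcript start on GRCm38.p6, written 5′ to 3′ on the gene's strand. Capitals mark a GAGGAA core of PU.1 sites or a GTCTG SMAD box on either strand, the reverse forms being TTCCTC and CAGAC. Every printed window holds a marked stretch, whereas the other windows of Sall1 and the window of Olfml3 hold none. The windows are chr3:59262936-59263235 (minus strand) for P2ry12, chr8:89044113-89044412 (minus) for Sall1, chr7:55767934-55768233 (plus) for Siglech, chr4:150119094-150119393 (plus) for Slc2a5 and chr3:87263475-87263774 (minus) for Fcrls.
P2ry12: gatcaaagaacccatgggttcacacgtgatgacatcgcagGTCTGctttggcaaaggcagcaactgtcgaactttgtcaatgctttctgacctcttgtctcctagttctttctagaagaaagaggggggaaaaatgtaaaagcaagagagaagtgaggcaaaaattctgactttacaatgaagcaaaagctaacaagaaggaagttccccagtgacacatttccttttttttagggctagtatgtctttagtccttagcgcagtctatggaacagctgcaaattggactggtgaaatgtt
Sall1: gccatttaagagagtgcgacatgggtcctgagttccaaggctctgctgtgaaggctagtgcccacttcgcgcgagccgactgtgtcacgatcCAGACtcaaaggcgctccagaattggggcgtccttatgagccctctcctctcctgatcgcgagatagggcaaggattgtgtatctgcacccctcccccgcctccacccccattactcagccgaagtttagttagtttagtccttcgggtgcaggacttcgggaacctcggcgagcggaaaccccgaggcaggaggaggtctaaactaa
Siglech: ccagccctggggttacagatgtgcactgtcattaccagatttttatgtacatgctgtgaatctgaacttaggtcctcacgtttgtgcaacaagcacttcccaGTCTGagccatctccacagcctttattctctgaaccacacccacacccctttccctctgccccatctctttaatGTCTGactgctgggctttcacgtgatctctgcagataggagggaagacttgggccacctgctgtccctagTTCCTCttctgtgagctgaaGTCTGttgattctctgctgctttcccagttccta
Slc2a5: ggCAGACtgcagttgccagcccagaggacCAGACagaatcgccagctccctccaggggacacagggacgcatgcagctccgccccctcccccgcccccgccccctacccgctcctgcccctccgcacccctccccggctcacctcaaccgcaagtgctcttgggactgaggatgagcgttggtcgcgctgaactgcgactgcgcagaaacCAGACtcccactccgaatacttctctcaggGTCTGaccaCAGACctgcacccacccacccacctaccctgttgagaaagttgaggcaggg
Fcrls: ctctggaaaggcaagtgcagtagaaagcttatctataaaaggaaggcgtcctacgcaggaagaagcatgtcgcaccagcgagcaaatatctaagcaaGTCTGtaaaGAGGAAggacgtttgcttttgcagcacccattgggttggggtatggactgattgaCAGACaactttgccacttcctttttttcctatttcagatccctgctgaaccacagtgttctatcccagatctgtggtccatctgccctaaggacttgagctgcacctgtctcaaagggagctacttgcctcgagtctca

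RefSeq windows were matched for 7 of the 9 members, with 9 windows in all since Sall1 has 3. Tmem119 and Gpr34 had no entry. GTCTG was present for 6 of the 7 members, in 6 of their 9 windows, and in 49.6% of the 32851 windows of the table. Slc2a5 held 5 copies. GAGGAA was present for 2 of the 7, Fcrls and Siglech, and in 28.3% of all windows. The PU.1 core of Siglech began at position -4 and that of Fcrls at position -144, where 0 is the first transcribed base. The AP-1 site TGANTCA was found for 0 of the 7 and in 7.81% of all windows. These matches describe letters only.

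Among the surface receptors, P2ry12 is the purinergic receptor with which microglial processes sense nucleotides from injured cells. The gene lies at chr3:59216272-59262871 on the minus strand (GRCm38) and sits inside Med12l on the opposite strand without shared exon bases. In the order m2, m6, m234, m235 and m236, P2ry12 was at 44.9, 32.3, 107, 19.4 and 34.9 CPM in ARG1- libraries and at 25.9, 27.2, 25.0, 14.5 and 28.6 CPM in ARG1+ libraries. The ARG1- library of m234 stood far above the other 9, those of m235 were the lowest of their groups, and the groups overlapped. Within each of the 5 animals the ARG1+ library was the lower one. The edgeR fit without a block gave a log2 fold change of -0.94 ± 0.37 (SE, n = 5 per group) with an FDR of 0.117, and the exact permutation p of log2 CPM was 0.127. With the animal as a block it was -0.77 (edgeR FDR 0.0247), and in 8 libraries without m234 -0.44 (edgeR FDR 4.65e-04).

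Siglech encodes a sialic acid-binding lectin that microglia share with plasmacytoid dendritic cells. It lies at chr7:55768178-55778925 on the plus strand. Its ARG1- levels, in the same order of animals, were 20.2, 12.6, 71.0, 6.51 and 13.9 CPM, and its ARG1+ levels were 8.58, 9.36, 7.17, 3.58 and 10.9 CPM. The level in the ARG1- library of m234 was 5.37 times the median of the other 4 ARG1- libraries, and the ARG1+ library was lower in 5 of 5 animals. Without the block, the log2 fold change was -1.57 ± 0.55 (edgeR FDR 0.0824, exact permutation p 0.0714, n = 5 per group). It was -1.24 with the block (edgeR FDR 0.0242). Of 15 genes listed for plasmacytoid dendritic cells, Siglech among them, 8 were tested. Without the block 0 were lower and 1, Il3ra, was higher. With the block 5 were lower, Siglech included, and 1 was higher. Lair1, the most abundant, had -0.11 (edgeR FDR 0.360). Ccr9, Ly6d, Klk1 and Dntt of that list were below 1 CPM in every library. The summed level of the list, which includes Siglech, was 602 to 742 CPM in ARG1- and 546 to 622 CPM in ARG1+ libraries.

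Gpr34, at chrX:13632089-13640858 on the plus strand and inside Cask on the opposite strand without shared exon bases, encodes a receptor for lysophosphatidylserine. ARG1- libraries held 11.6, 6.81, 40.5, 1.47 and 7.94 CPM, and ARG1+ libraries held 4.41, 4.66, 6.85, 1.43 and 6.30 CPM. In m235 the level was low in both sorts and the difference between them was 0.04 on the log2 scale, on 41 counts in the ARG1- and 47 in the ARG1+ library. From lowest to highest library, Gpr34 spanned 28.4-fold, more than any other member. Its log2 fold change was -1.42 ± 0.67 without the block (edgeR FDR 0.177) and -1.11 with it (edgeR FDR 0.0190).

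Fcrls, an Fc receptor-like scavenger receptor of rodents, lies at chr3:87250758-87263738 on the minus strand. It was at 73.0, 22.3, 93.1, 12.6 and 11.3 CPM in ARG1- and at 37.0, 16.2, 39.9, 7.22 and 12.9 CPM in ARG1+ libraries. Its levels followed the animal more than the sort: m2 and m234 were high in both, and m236, which was the highest ARG1+ library for 7 of the 9 members, was low in both. ARG1+ was lower in 4 of 5 animals, with m236 the exception at +0.20 on the log2 scale. Without the block the log2 fold change was -0.86 ± 0.63 (edgeR FDR 0.387), the highest FDR of the set. With the block it was -0.70 ± 0.16 (edgeR FDR 0.00771).

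Tmem119, a membrane protein used widely to stain microglia, lies at chr5:113793729-113800516 on the minus strand. Its levels were 112, 75.2, 188, 57.6 and 88.8 CPM in ARG1- and 71.2, 65.3, 71.97, 46.8 and 75.2 CPM in ARG1+ libraries. This was the narrowest spread of the set, 4.01-fold over the 10 libraries. ARG1+ was lower in 5 of 5 animals, by 0.20 to 0.30 on the log2 scale in 3 of them. The log2 fold change was -0.64 ± 0.26 without the block (edgeR FDR 0.124) and -0.55 with it (edgeR FDR 0.0146).

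Of the secreted proteins, SPARC is a matrix-binding glycoprotein that microglia, fibroblasts and vessel cells also make. The gene lies at chr11:55394500-55423183 on the minus strand. Sparc was at 146, 85.6, 628, 43.9 and 106 CPM in ARG1- and at 58.9, 70.9, 65.3, 22.8 and 75.2 CPM in ARG1+ libraries. The value of 628 CPM, on 5337 counts, was 6.56 times the median of the other ARG1- libraries, the greatest such excess among the members. Sparc had the most negative change of the set without the block, -1.76 ± 0.62 on the log2 scale (edgeR FDR 0.0818). Without that 1 library it was -0.70 (edgeR FDR 0.209). With the block it was -1.24 (edgeR FDR 0.0227). Of 12 genes of fibroblasts and mural cells, only Igfbp7 reached the limit for testing, at -1.12 on the log2 scale (edgeR FDR 0.217). Their summed level was 1.295 CPM in the ARG1- library of m234 and 1.33 to 8.14 CPM in the other 9, and Col1a1 did not pass 1.56 CPM in any. Of 11 genes of endothelial cells, 5 were tested, 2 were lower and 0 higher without the block, 3 were lower with it, and the median log2 fold change was -0.47. Their summed level, led by Ly6c1, which monocytes also express, was 261 to 461 CPM in ARG1- and 193 to 299 CPM in ARG1+ libraries. In the ARG1- library of m234 it was 261 CPM. Kdr, a receptor for vascular growth factors, had the largest change of that list at -0.82 (edgeR FDR 0.0204), and Cldn5 of the same list did not pass 2.47 CPM. The part of vessel cells in the level of Sparc was not tested.

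Olfml3 encodes a secreted olfactomedin-like protein and lies at chr3:103722222-103738001 on the minus strand. ARG1- libraries had 181, 94.0, 305, 70.7 and 131 CPM and ARG1+ libraries had 111, 100.4, 108, 59.0 and 130 CPM. In m6 the ARG1+ library was the higher one by 0.09 on the log2 scale, and in m236 the sorts differed by 0.01. Olfml3 was the member that passed in neither fit of all libraries: its log2 fold change was -0.61 ± 0.34 without the block (edgeR FDR 0.253) and -0.47 ± 0.19 with it (edgeR FDR 0.0786).

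Slc2a5 encodes the fructose transporter GLUT5, which in the nervous system is found mainly on microglia, and lies at chr4:150119283-150144169 on the plus strand. It was the least abundant member, at 5.33, 2.81, 12.6, 1.65 and 3.91 CPM in ARG1- and at 1.95, 1.81, 1.32, 0.819 and 2.58 CPM in ARG1+ libraries. These rest on 46 to 169 and on 27 to 79 counts. ARG1+ was lower in 5 of 5 animals, by 0.60 to 3.25 on the log2 scale. Its log2 fold change of -1.52 ± 0.48 came closest to the limit without the block (edgeR FDR 0.0577, exact permutation p 0.0476), and with the block it was -1.38 (edgeR FDR 0.0108). Without the ARG1- library of m234 and without a block, it was -1.02 (edgeR FDR 0.0810).

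Sall1 encodes the zinc-finger transcription factor that holds microglial identity and lies at chr8:89027235-89044162 on the minus strand. Its ARG1- levels were 17.4, 12.7, 48.4, 5.04 and 16.7 CPM, and its ARG1+ levels were 7.05, 8.88, 6.07, 2.40 and 10.4 CPM. In each animal ARG1+ was lower by at least 0.52 on the log2 scale, and in m234 the ARG1- level was 7.97 times the ARG1+ level. The log2 fold change was -1.46 ± 0.51 without the block (edgeR FDR 0.0796, exact permutation p 0.0714). It was -1.30 ± 0.30 with the block (edgeR FDR 0.00766), the lowest FDR of the set in that fit.

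**Figure D1:**
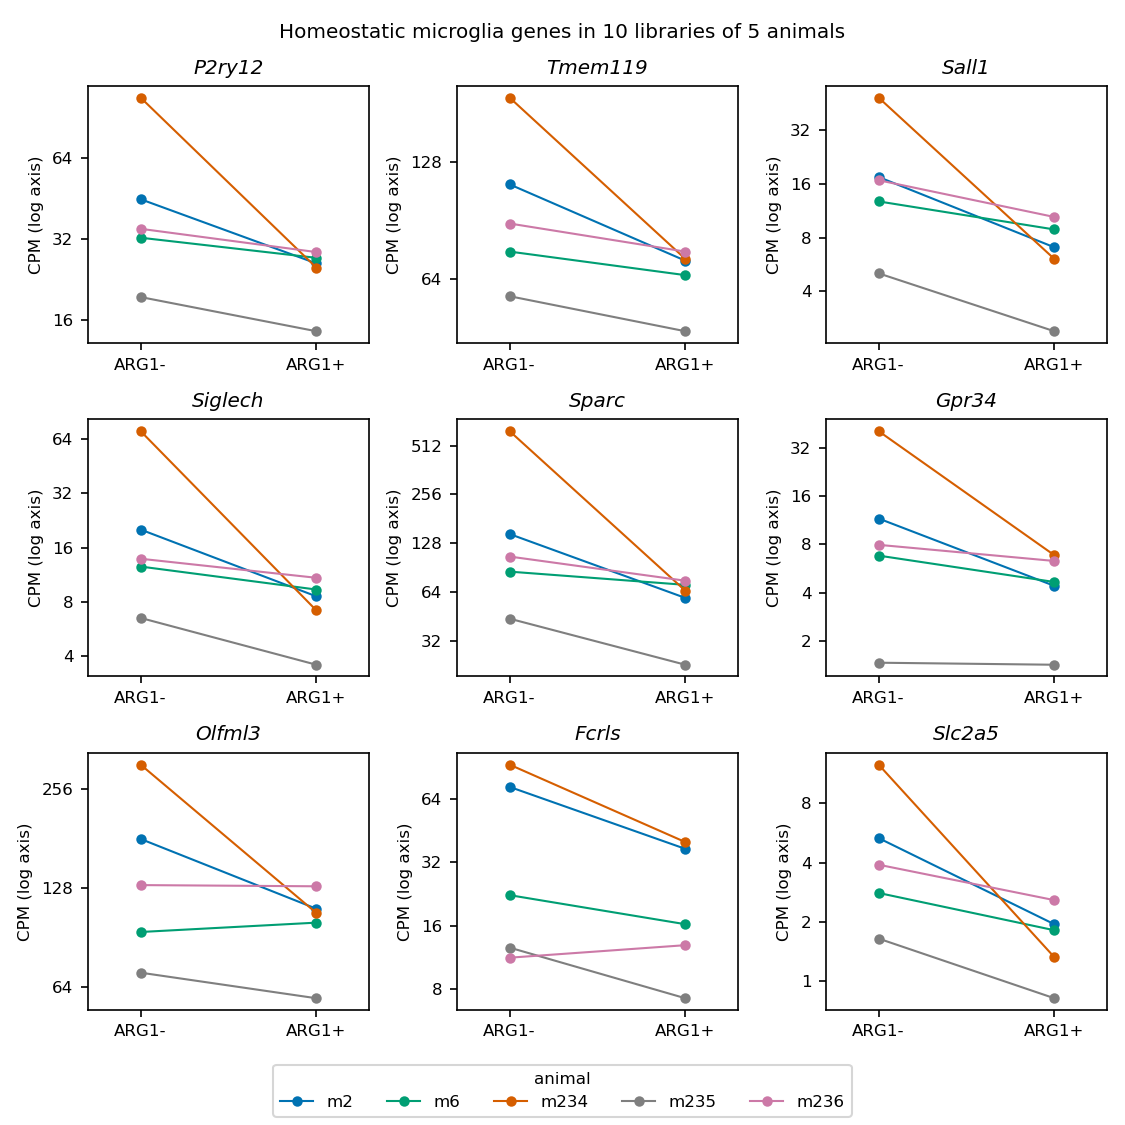
CPM of the 9 genes in each library on log axes, with a line joining the ARG1- and ARG1+ library of each animal. Lines slope down in 43 of 45 cases, the exceptions being Olfml3 in m6 and Fcrls in m236. m234 has the steepest line for 9 of 9 genes and m235 lies lowest in 17 of the 18 groups.

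Counted over the set, 0 of 9 genes were lower and 0 were higher in ARG1+ libraries at an FDR below 0.05 in the edgeR fit without a block, where 6.15% of all tested genes were lower and 6.82% were higher. At an unadjusted p below 0.05 there were 6 of 9 lower, and 15% of all tested genes. The smallest FDR was 0.0577, and 0 of 9 were also past an absolute log2 fold change of 1, against 0.888% of all tested genes. The median log2 fold change of the members was -1.42, beside -0.0022 over all tested genes. The groups overlapped for 9 of 9 members, while 5.2% of all tested genes had every ARG1+ library below every ARG1- library. The smallest p that the exact permutation test of 5 against 5 libraries can give is 0.00794, and the members had 0.0476 (Slc2a5) to 0.444 (Fcrls). That test treats the libraries as independent and leaves out the pairing by animal, so differences between animals enter its p.

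With the animal as a block, which the design calls for since both libraries came from the same mouse, 8 of 9 were lower at an edgeR FDR of 0.0247 or less, and Olfml3 had 0.0786. In that fit 18.3% of all tested genes were lower and 16.8% higher. Of the 8, 5 were also past an absolute log2 fold change of 1 (Sall1, Siglech, Sparc, Gpr34 and Slc2a5), against 1.55% of all tested genes. The block count fell furthest without both libraries of m2, where 1 of 9 was lower, Sall1 at an edgeR FDR of 0.0376. The other 8 had an edgeR FDR of 0.0514 to 0.230 with log2 fold changes of -0.41 to -1.35. These changes were close to the -0.47 to -1.38 of all 9 members with m2. Lower calls over all tested genes went from 18.3% to 11.8% in the fit without m2. Leaving out m6, m234, m235 or m236 gave 9, 8, 6 and 8 members, where 13.5%, 20.8%, 13.3% and 15.5% of all tested genes were lower. The count past both limits fell from 5 to 0 without m234, to 1 without m2 and to 3 without m235, beside 0.979%, 1.12% and 1.47% of all tested genes.

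The ARG1- library of m234 set the size of the change but not its direction. Without that library and without a block, 0 of 9 were lower in the edgeR fit, where 5.74% of all tested genes were lower, and 3 were at an unadjusted p below 0.05, against 13.9%. The median log2 fold change went from -1.42 to -0.56. Exact permutation p over 5 against 4 libraries ran from 0.0952 to 0.794, with 0.0159 as the smallest possible. With the block and without both libraries of m234, the median was -0.68 and Olfml3 had an edgeR FDR of 0.0709. The members themselves had 107 (Slc2a5) to 5337 (Sparc) counts in that library. The part of its depth in their levels was not tested.

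**Figure D2:**
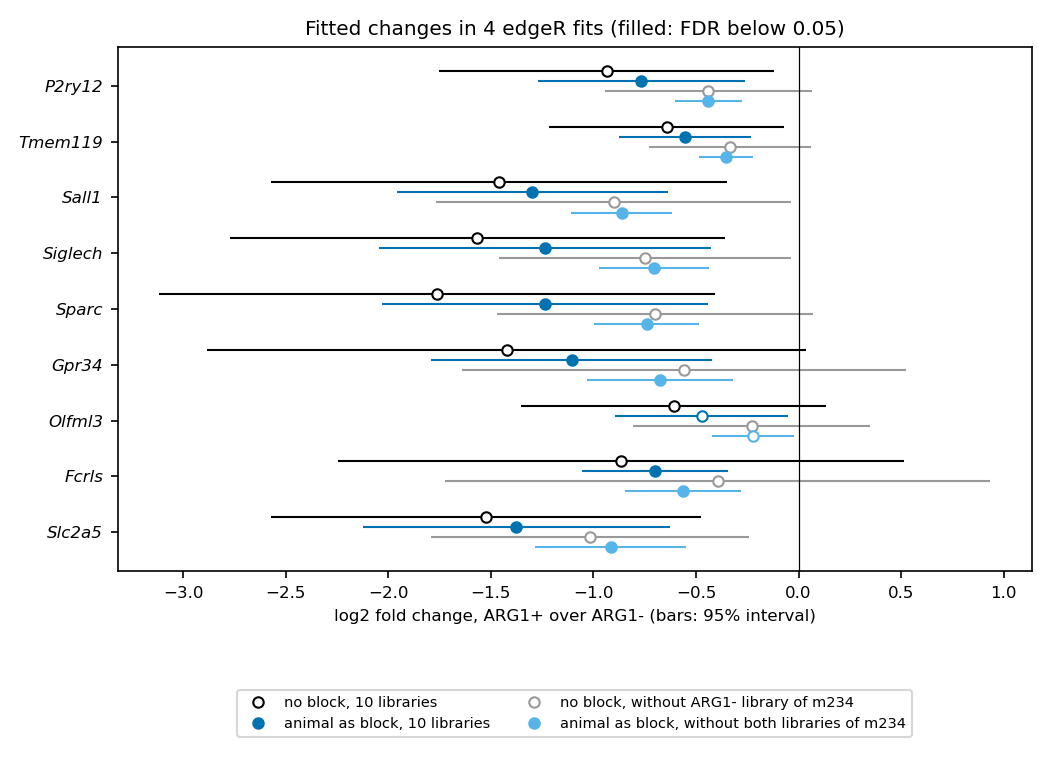
Log2 fold change of each gene (ARG1+ over ARG1-) with its 95% interval in 4 edgeR fits, with and without the animal as a block and with and without m234; filled points have an FDR below 0.05. All points lie below 0, filled points occur in the 2 block fits alone, and values without m234 lie closer to 0, between -1.02 and -0.22.

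The animals differed in how far the sorts lay apart. The median log2 difference of the 9 members, ARG1+ minus ARG1-, was -2.56 in m234, -1.23 in m2, -0.80 in m235, -0.42 in m6 and -0.33 in m236. In m2, m234 and m235 all 9 were lower in ARG1+, and in m6 and m236 8 were. The ARG1- libraries of m234 and m2 were the highest and second highest for 9 of 9 members. Among ARG1+ libraries m236 was the highest for 7, m234 for Gpr34 and Fcrls, and m235 the lowest for 9. The summed level of the set was 219 to 1493 CPM in ARG1- libraries (median 414) and 159 to 352 CPM in ARG1+ libraries (median 326). The ARG1- sum of m235 was below 4 of the 5 ARG1+ sums.

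**Figure D3:**
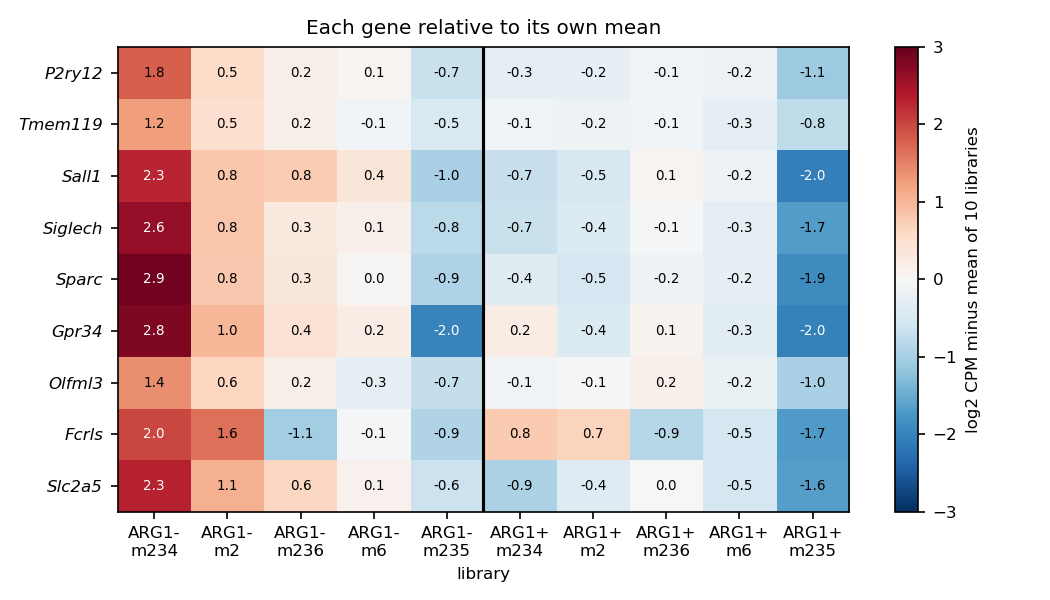
Log2 CPM of each gene minus its mean over the 10 libraries, with libraries in columns by sort and animal and the value printed in each cell. The ARG1- library of m234 is above the mean for all 9 genes, the ARG1+ library of m235 is below it for all 9, and Fcrls is the row in which m236 is low in both sorts.

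The members kept close company across libraries. After the group means were taken out, the log2 levels of the 28 pairs without Fcrls had correlations of 0.927 to 0.996 over the 10 libraries, and the 8 pairs with Fcrls 0.637 to 0.793. The points share animals, and the ARG1- library of m234 is far from the rest, so these values are a description. The ratio of Fcrls to P2ry12 showed the same departure. It was 1.63 in the ARG1- and 1.43 in the ARG1+ library of m2 but 0.323 and 0.452 in those of m236.

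Proportions between members also changed with their sum. Sparc made 42.1% of the summed CPM of the set in the ARG1- library of m234 and 14.4% to 25.6% in the other 9. The ratio of Sparc to Tmem119 was 3.35 there and 0.488 to 1.302 elsewhere, with 0.488 in the ARG1+ library of m235, which had the lowest sum. Compared with Tmem119 within each animal, the log2 difference between sorts was steeper in 5 of 5 animals for P2ry12, Sall1, Siglech, Sparc and Slc2a5, in 4 for Gpr34, in 3 for Fcrls and in 2 for Olfml3. Over the 10 libraries Tmem119, Olfml3 and P2ry12 spanned 4.01, 5.16 and 7.40-fold, and the other 6 spanned 12.9 to 28.4-fold.

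**Figure D4:**
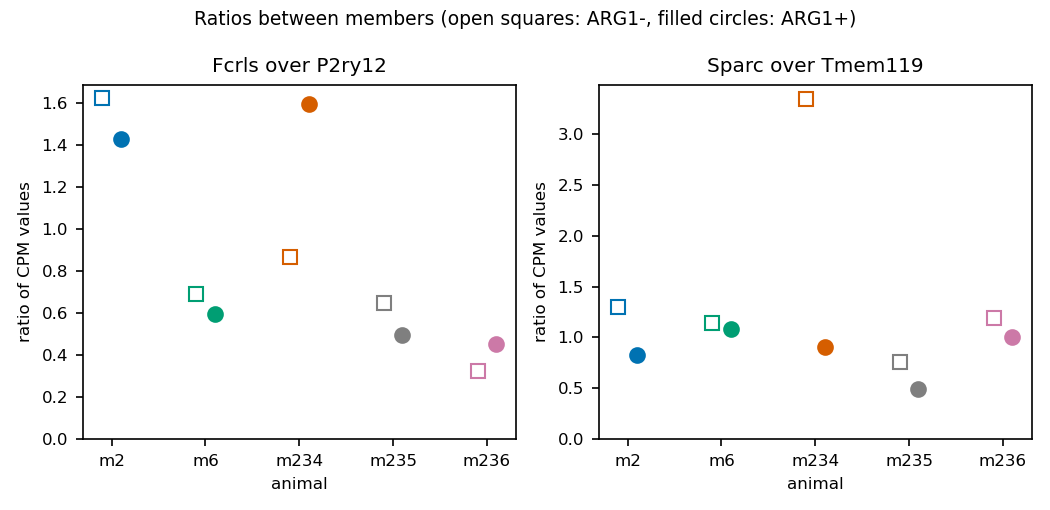
Ratio of CPM of Fcrls to P2ry12 and of Sparc to Tmem119 in each animal, with open squares for ARG1- and filled circles for ARG1+ libraries. Fcrls over P2ry12 goes with the animal except in m234, at 0.869 and 1.60, and Sparc over Tmem119 is 3.35 in the ARG1- library of m234 and at most 1.302 in the others.

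Per kilobase of annotated exon, mean levels in ARG1- libraries were ordered as Sparc (74.2 CPM per kb), Tmem119 (46.5), Olfml3 (28.6), P2ry12 (19.6), Fcrls (18.7), Siglech (7.56), Gpr34 (6.54), Sall1 (3.81) and Slc2a5 (1.67). The ARG1+ means were 29.5 CPM per kb for Tmem119, 21.6 for Sparc, 18.6 for Olfml3, 9.97 for Fcrls, 9.92 for P2ry12, 2.41 for Siglech, 2.26 for Gpr34, 1.32 for Sall1 and 0.537 for Slc2a5. In ARG1- libraries each gene and its neighbour in this order lay closer than the larger of their SDs. In ARG1+ libraries Tmem119 and Sparc, Olfml3 and Fcrls, P2ry12 and Siglech, and Sall1 and Slc2a5 were neighbours that lay further apart than that. Sequence shared with other genes was small. At most 0.601% of the 50-base stretches of a member, those of Sparc, occurred in another gene.

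Of 30 other genes named for microglia, 29 were tested. Without the block 3 were lower, P2ry13 and Gpr183 among them, and 2 higher (Mertk and Ctss), with a median log2 fold change of -0.42. With the block 13 were lower and 3 higher. Slco2b1, an organic anion transporter and the list's largest change, had -1.67 ± 0.51 without the block (edgeR FDR 0.0522) and -1.40 with it (edgeR FDR 0.00412). P2ry13, the neighbouring purinergic receptor, was at 25.1 to 41.4 CPM in ARG1+ and 40.5 to 82.9 CPM in ARG1- libraries, a change of -0.72 (edgeR FDR 0.0344). Cx3cr1, also a marker of the gate, was lower in ARG1+ in 5 of 5 animals. Its change was -1.01 without the block (edgeR FDR 0.153) and -0.97 with it (edgeR FDR 9.24e-05). Genes that macrophages of other origin also express were the most abundant of the list. Ctss, the protease cathepsin S, was higher in ARG1+ libraries by 0.37 on the log2 scale (edgeR FDR 0.0103). The summed level of the list, which Ctss leads, was 21700 CPM in the ARG1- library of m234, 14710 to 17140 in the other ARG1- and 16190 to 19580 in ARG1+ libraries.

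Of 16 transcription factors of microglia and their precursors, 2 were lower without the block, Spi1, which encodes PU.1, by 0.21 on the log2 scale (edgeR FDR 0.0227) and Runx1 by 0.28 (edgeR FDR 0.0240). Sall3, the relative of Sall1, had the largest change of the list at -1.53 ± 0.53 (edgeR FDR 0.0774). The median was -0.13. With the block 6 were lower and 2 higher, Sall3 being lower at an edgeR FDR of 0.0203.

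TGF-beta signaling genes are the pathway on which the homeostatic set depends. Of 21 genes 17 were tested, 1 was lower and 1 higher without the block, and the median log2 fold change was -0.09. Nrros, whose protein anchors latent TGF-beta on microglia, was lower by 0.23 on the log2 scale (edgeR FDR 0.0274). Ltbp3, which binds latent TGF-beta, was higher by 1.11 (edgeR FDR 0.0340), and by 1.12 without the ARG1- library of m234 (edgeR FDR 0.0506). Skil, a SMAD corepressor and the most abundant of the list, had -0.25 (edgeR FDR 0.0941). With the block 8 were lower and 1 higher. The receptor genes had -0.28 for Tgfbr1 (edgeR FDR 0.180) and -0.09 for Tgfbr2 (edgeR FDR 0.699).

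Genes of disease-associated microglia are in many cases shared with lipid-handling macrophages. Of 24 tested, 10 were higher and 0 lower without the block, with a median of 0.42. With the block 16 were higher and 3 lower. Fabp5, a fatty acid carrier and the list's largest change, was higher by 1.25 on the log2 scale (edgeR FDR 0.00121), and Apoe, the most abundant, had 0.45 (edgeR FDR 0.238). Of 17 tested genes of monocyte-derived cells, 6 were lower, among them the chemokine receptor gene Ccr2 at -1.12 (edgeR FDR 0.00339), and 1 was higher, Lyz2. With the block 7 were lower and 6 higher. The summed level of that list was 17110 CPM in the ARG1- library of m234, the lowest of the 10 libraries, 21700 to 25420 in the other ARG1- and 25370 to 32180 CPM in ARG1+ libraries. Of 9 tested genes of CNS-associated macrophages, 4 were higher (Mrc1, Pf4, Ms4a7 and Stab1) and 0 lower, with 3 higher when the ARG1- library of m234 was left out and 6 higher with the block. Tgfbi, the most abundant of these, had -0.07 (edgeR FDR 0.714), and Pf4, the most changed, 1.89 (edgeR FDR 0.00324). Cd163, Lyve1 and Folr2 were at mean levels of at most 0.152 CPM in either group. 

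Markers of further cell types also differed between the sorts. Of 11 tested genes of conventional dendritic cells, 8 were lower and 1 higher without the block, and 9 and 1 with it, with a median of -1.65. Naaa, the most abundant, had -0.54 (edgeR FDR 0.00133), and Flt3, the growth factor receptor of these cells, had the largest change at -3.59 (edgeR FDR 2.40e-04). The summed level of that list was 462 to 588 CPM in ARG1- and 440 to 521 CPM in ARG1+ libraries, and in the ARG1- library of m234 it was the lowest of its group. Of 4 tested genes of B cells and plasma cells, 3 were lower in either fit. Their summed level was 68.7 CPM in the ARG1- library of m234, 32.3 to 52.8 in the other ARG1- and 5.85 to 17.7 CPM in ARG1+ libraries. Without the block, 1 of 4 tested platelet genes was higher, Pf4, which is also on the list of CNS-associated macrophages. So were 2 of 6 of astrocytes, 1 of 3 of T cells (Il7r) and 3 of 16 of the response to tissue dissociation. In these lists 2, 4, 2 and 9 tested genes, in that order, had a log2 fold change below 0. Of neutrophil genes 1 of 3 was lower, and 0 of 7 of oligodendrocytes passed. Genes of neurons and NK cells did not reach the limit for testing. The part of cell composition in the members' levels was not tested.

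**Figure D5:**
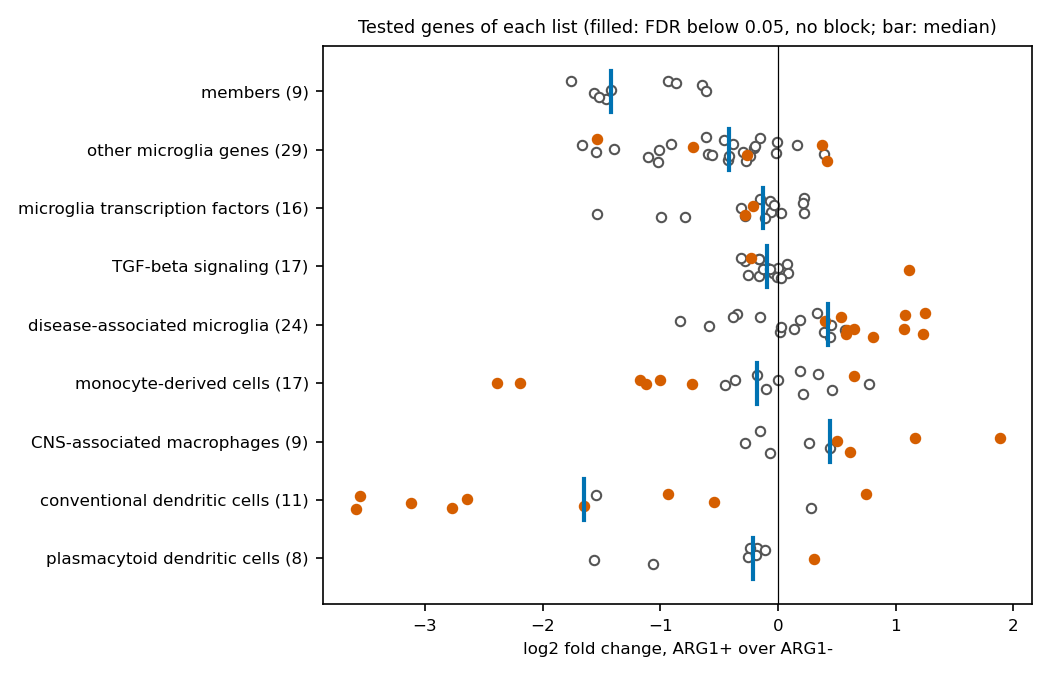
Log2 fold change (ARG1+ over ARG1-, edgeR without a block) of each tested gene in the members and 8 lists, with the number tested in brackets, filled points for an FDR below 0.05 and a bar at the median. The members have the median -1.42 and 0 filled points; the other microglia genes have -0.42 and the genes of disease-associated microglia 0.42.

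Outside the set, the genes whose levels ran most like it over the 10 libraries were Tanc2, Cd81, Rapgef5, Adgrg1, Plxdc2, Nav3, Mlxipl, St3gal6, Siglecf and Slco2b1. They were picked from 12303 genes with a CPM above 1 in all libraries by their correlation with the mean standardized log2 level of the members, which was 0.981 to 0.994. Adgrg1, the adhesion receptor GPR56, Plxdc2 and Slco2b1 were also on the list of other microglia genes. Adgrg1 was at 3.46 to 9.18 CPM in ARG1+ and 5.97 to 56.7 CPM in ARG1- libraries. Cd81 encodes a tetraspanin. Their log2 fold changes were -0.87 to -1.92 without the block, with edgeR FDRs of 0.0522 to 0.143. Thus 0 of these 10 passed without the block, where 6.15% of all tested genes were lower. With the block, Slco2b1, Adgrg1 and Plxdc2 were lower (edgeR FDR 0.00412, 0.0126 and 0.0139), where 18.3% of all tested genes were lower. Block values of the others are not reported here. Because these 10 genes were picked for levels like the members', difference between sorts included, their values follow from the choice and are no separate result. The correlation rests on the same animals and leans on the ARG1- library of m234.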

How the data were processed

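Total RNA of sorted cells was made into stranded libraries with a directional kit. The counts were made by the authors and deposited as whole numbers per Ensembl gene without normalization: single-end reads were demultiplexed with Picard-based tools, aligned to GRCm38 with STAR 2.7.10b (per the labels) and counted on the basic Ensembl annotation with summarizeOverlaps in Union mode. No source used here says if counting took the strand into account. All 10 sample columns were used.

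Counts were fitted with edgeR 4.0.16 in R 4.3.3 (quasi-likelihood test, TMM library sizes, CPM above 1 in 3 or more libraries), and FDR is the Benjamini-Hochberg value over all tested genes, called below 0.05, with an absolute log2 fold change above 1 as a further limit. The methods of the study name limma-trend and no block. Alternatives were limma 3.58.1, DESeq2 1.42.0, other scaling and filters, the animal as a block, and leaving out single libraries or animals. Single values were compared by 2-sided exact permutation of log2 CPM, without the pairing by animal. The block is justified because same-numbered libraries came from the same animal: residuals from the group means correlated at 0.361 to 0.664 across genes within animals and at most 0.0675 between animals. The fits were tested on simulated data. The simulated counts held no differences between animals and no library with a profile of its own. They therefore do not bear on the pairing by animal or on the levels in the ARG1- library of m234.

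Promoter windows and exon annotation were taken from the same build. The members and the lists of microglia, transcription factor, TGF-beta and other cell type genes were chosen with earlier results of these data known. Named were all members, Arg1, the most abundant and the most changed gene of each list described, and the 10 genes most like the members. A few genes under this rule are not reported here. Other list genes were named after their values were seen, and B cells and the cell types with few tested genes are given by counts. Depth gives 8.496 to 36.0 counts per CPM on TMM library sizes, so values of a few CPM in the smallest library carry the larger counting error.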

Additional observations from a re-analysis of the deposited data

Results flagged for a closer look

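In 5 of 18 groups of 5 libraries (9 members, 2 sorts), the highest or lowest library stood apart from the others on the CPM scale. Its gap to the nearest was more than 0.71 of the whole range. About 1 in 20 groups of normally distributed values would pass this limit, but CPM values need not be so distributed. The rate therefore gives no measure of chance here, and log2 CPM were not examined in this way. The ARG1- library of m234 was the high one for Sparc (0.825 of the range), Siglech (0.788), Gpr34 (0.741) and Sall1 (0.714). These 4 values come from 1 library. The ARG1+ library of m235 was the low one for P2ry12 (0.748).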

How the results depend on the processing

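The direction of all 9 members and their median kept lower in ARG1+ under every alternative tried, and 0 were higher. The median log2 fold change ran from -1.71 (without the ARG1- library of m235) to -0.56 (without that of m234), with -0.97 by limma-trend. The number of members lower was 0 as reported (6.15% of all tested genes), 1 with library totals (9.33%), 2 by the DESeq2 Wald test (9.51%), 4 without a filter on low counts (2.32%), and 0 to 6 when 1 library or animal was left out (6 without the ARG1- library of m235, where 5.67% of all tested genes were lower, and 2 without both of m235, where 4.76% were). The number past both limits was 1, 2 and 4 in the same 3 settings, beside 1.03%, 1.35% and 0.643% of all tested genes. The number past both limits was 0 to 5 on leaving out, with 5 without the ARG1- library of m235, where 1.23% of all tested genes were. With the replicate block, the animal, 8 were lower and 5 past both limits, beside 18.3% and 1.55% of all tested genes. Leaving out each animal under the block, chosen after seeing the data, gave 1 to 9 lower and 0 to 5 past both limits. Of all tested genes, 11.8% to 20.8% were lower and 0.979% to 1.59% past both limits in those fits. The cause of these differences was not tested. Over all genes the block raised the lower calls from 845 to 2519 of 13740, library totals gave 1282 lower and 701 higher against 845 and 937, and DESeq2 gave 1307 lower and 1276 higher.

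Depth limits the ARG1- library of m234 and the least abundant members, Slc2a5 at 27 and Gpr34 at 41 counts in their lowest library. The 5 animals limit all tests, and no healthy or sorted microglia were analysed here.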
